A study of Homo sapiens with 2 samples.

Results

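Amino acids enter a cell through membrane carriers, and 10 human genes were followed here: 9 genes of such carriers (SLC7A11, SLC7A5, SLC7A1, SLC3A2, SLC1A5, SLC1A4, SLC38A1, SLC38A2 and SLC6A9) and ASNS, the gene of asparagine synthetase. They were taken by gene symbol from a table of 50867 gene entries, and each symbol had 1 entry. RNA came from HCT116, an established human colorectal carcinoma line, transfected with an siRNA against PHF5A (PHF5A knockdown) or with a control siRNA (control). PHF5A is a small subunit of the SF3b splicing complex, and the study asked which transcripts it regulates in this tumour type. The siRNA sequences and the time after transfection are not known here. Each group had a single library, so differences are given by size, with counting error only and without p-values.

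ASNS makes asparagine from aspartate with glutamine as the nitrogen donor. SLC3A2 (4F2hc, CD98) is the heavy chain that carries SLC7A5 or SLC7A11 to the cell surface. With SLC7A5 (LAT1) it exchanges large neutral amino acids such as leucine, and with SLC7A11 (xCT) it imports cystine in exchange for glutamate. SLC1A5 (ASCT2) and SLC1A4 (ASCT1) exchange small neutral amino acids, SLC38A1 and SLC38A2 (SNAT transporters) take up glutamine and alanine with sodium, SLC7A1 (CAT1) carries arginine and lysine, and SLC6A9 (GlyT1) carries glycine. ASNS and several of these carriers are known targets of ATF4, a transcription factor that is translated when amino acids run short or proteins misfold. ATF4 pairs with a C/EBP protein on a composite DNA element whose core reads TGATGNAA.

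The knockdown library held 25897412 counts and the control library 26552789. PHF5A itself had 91 counts in the knockdown library and 367 in the control library. That is 3.93-fold lower in the knockdown library by library-scaled counts (CPM), with a 95% exact interval of 3.12 to 5.0 for counting error alone. Of 9 colon epithelial markers 7 reached 1 FPKM (counts per kilobase of gene length, scaled to a common library size), with KRT19 at 1032 FPKM in the knockdown library and 1046 in the control library, and CDX2 at 3.16 FPKM in the knockdown and 6.90 in the control. The log2 ratios of FPKM + 1 (knockdown over control) of these 7 ran from -0.93 to 0.26. VIL1 had 1 count in the knockdown and 0 in the control, and CDH17 had 0 in both. There 3 counts, the limit that 0 allows, are 0.116 CPM in the knockdown and 0.113 in the control. The control library also held heart muscle transcripts: 12 such markers summed to 312 counts (0.0012%) in the knockdown library and 95812 (0.361%) in the control library, and 5 of them were at 0 in the knockdown library. Each sum rested mainly on 1 marker. TNNI3 had 229 counts in the knockdown and 334 in the control, and TTN had 37 in the knockdown and 65612 in the control. Of 6 fibroblast markers the summed counts were 875 in the knockdown and 2785 in the control, and of 5 blood cell markers 389 in the knockdown and 542 in the control. The abundant small RNAs 7SL, 7SK and RPPH1 took 24.5% of the knockdown counts and 15.7% of the control counts, and FPKM is scaled to totals that include them. In bulk RNA, fewer cells of a type and less RNA per cell cannot be told apart.

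The letters of the ATF4 element were looked up in RefSeq promoter windows (GRCh38.p14), each running from 250 bases before an annotated start to 50 bases from it. The table matched 9 of the 10 genes with 16 windows, and SLC7A11 was the gene not matched. TGATGNAA, searched on both strands, stood in 6 of the 16 windows (37.5%), and in 3.62% of all 35116 windows. By gene it was in at least 1 window of 6 of the 9 members (66.7%), of 4.46% of all 27305 genes, and of 7.03% of genes with 2 or more windows. ASNS and several of the carriers are known ATF4 targets and were not chosen at random, so these shares are not a test of enrichment. The 6 stretches of 30 bases are shown because they set ASNS, with the highest ratio of the matched members, beside SLC38A1, with the lowest. Each is written 5′ to 3′ on the strand where the match, in capitals, reads TGATGNAA, and the ASNS match is the element long known from work on its promoter.
ASNS: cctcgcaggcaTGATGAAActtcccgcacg
SLC7A1: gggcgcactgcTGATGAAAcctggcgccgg
SLC3A2: ggagcTGATGTAAggagtcctgcacattac
SLC1A5: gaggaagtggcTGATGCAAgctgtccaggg
SLC1A4: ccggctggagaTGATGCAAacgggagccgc
SLC38A1: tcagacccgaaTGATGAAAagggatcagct
The ASNS stretch is chr7:97872458-97872487 on the minus strand, with the match at bases -68 to -61 from the annotated start. That of SLC7A1 is chr13:29595663-29595692 (minus strand, match at bases 8 to 15 counted from the start), and that of SLC38A1 is chr12:46266502-46266531 (minus strand, bases -4 to 4, with no base 0). Those of SLC3A2 (chr11:62881719-62881748), SLC1A5 (chr19:46784893-46784922) and SLC1A4 (chr2:64989381-64989410) are also written on the minus strand, which for SLC3A2 and SLC1A4 is the strand opposite to the gene. SLC3A2 and SLC1A5 had 3 windows each and the match in 1 of them. SLC7A5, SLC38A2 and SLC6A9 had 1 window each and no match in it. A match is a description of letters and not a measured binding site, and the genes with one had ratios in both directions, as given below.

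ASNS and SLC7A11 had the highest ratios, 3.21-fold and 3.27-fold higher in the knockdown library by CPM. SLC6A9 was 1.68-fold and SLC1A4 1.59-fold higher, and the more abundant SLC1A5, SLC7A5, SLC3A2 and SLC7A1 were 1.25-fold to 1.14-fold higher, though these 4 were lower after the TPM rescaling described below. SLC38A2 was at 0.996 times its control value, and SLC38A1 was 2.49-fold lower. By the size of the CPM ratio, 2 of the 10 genes reached 2-fold higher, against 5.32% of the 13452 entries with at least 50 counts in both libraries together, and 1 reached 2-fold lower, against 16.4%. The counting interval of the ratio lay above 1 for 8 of the 10, against 23.8% of those entries, and below 1 for 1, against 48.1%. High counts let an interval exclude 1 at a small ratio, as for SLC7A5, SLC3A2 and SLC1A5, while those entries start at 50 counts. The 10 genes were also chosen with earlier results of these data known, so these shares are not a test. The median CPM ratio was 1.24 over the 10 genes and 0.856 over the 13452 entries. On the log2 ratio of FPKM + 1, which understates the change of low genes, 8 of the 10 genes reached 1 FPKM in the higher library. Of these 8, 1 (ASNS) was past 2-fold higher and 0 past 2-fold lower, where 2.53% and 6.2% of 8957 expressed genes were. The median of the 8 was 0.26 and that of the 8957 genes was -0.15.

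**Figure D1:**
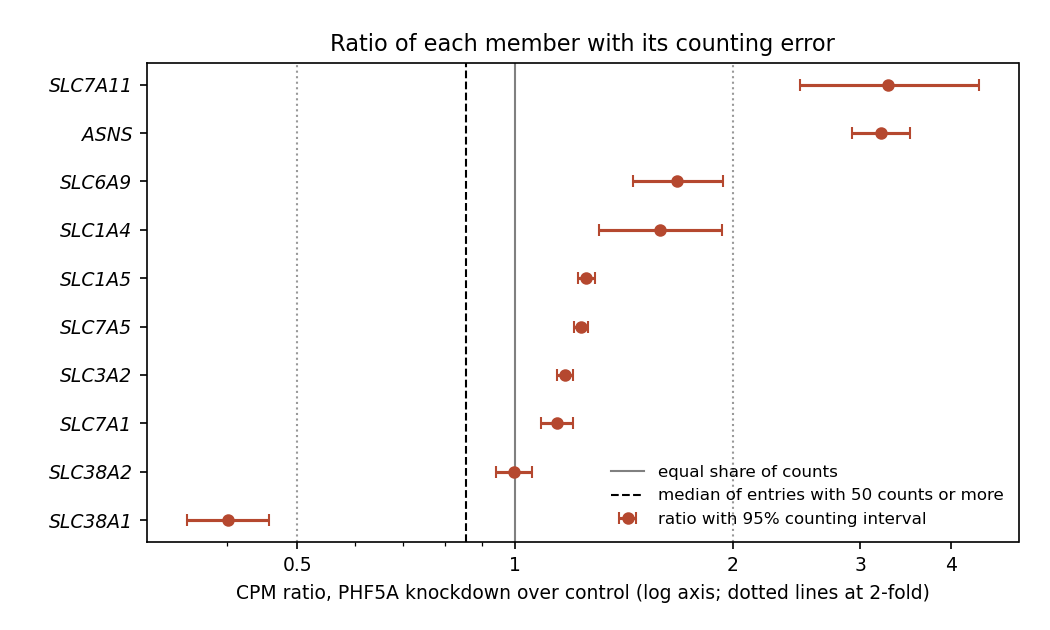
CPM ratio of PHF5A knockdown over control for the 10 genes on a log axis, with bars for the 95% exact interval of counting error, 1 library per group. ASNS (3.21) and SLC7A11 (3.27) lie beyond 2-fold, SLC38A1 (0.401) lies below 0.5, and the other 9 genes all lie above the dashed line, the median of 0.856 over entries with at least 50 counts.

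The levels spanned a wide range. In the knockdown library SLC7A5 had 128 FPKM, SLC1A5 86.4, SLC3A2 36.9, SLC7A1 14.9, ASNS 7.59, SLC38A2 6.53 and SLC6A9 2.72, and then came SLC1A4 (0.969), SLC38A1 (0.851) and SLC7A11 (0.838). The exact Poisson intervals of the last 3 overlapped, so their order is not set at this depth. In the control library the order was SLC7A5 (104 FPKM), SLC1A5 (68.9), SLC3A2 (31.5), SLC7A1 (13.0), SLC38A2 (6.55), ASNS (2.37), SLC38A1 (2.12), SLC6A9 (1.62), SLC1A4 (0.611) and SLC7A11 (0.256). There the intervals of ASNS (2.19 to 2.57 FPKM) and SLC38A1 (1.98 to 2.27 FPKM) overlapped. ASNS thus stood above SLC38A2 in the knockdown library and below it in the control library. SLC7A5, SLC1A5 and SLC3A2 together made up 90.4% of the summed FPKM of the 9 carriers in the knockdown library and 89.4% in the control library.

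**Figure D2:**
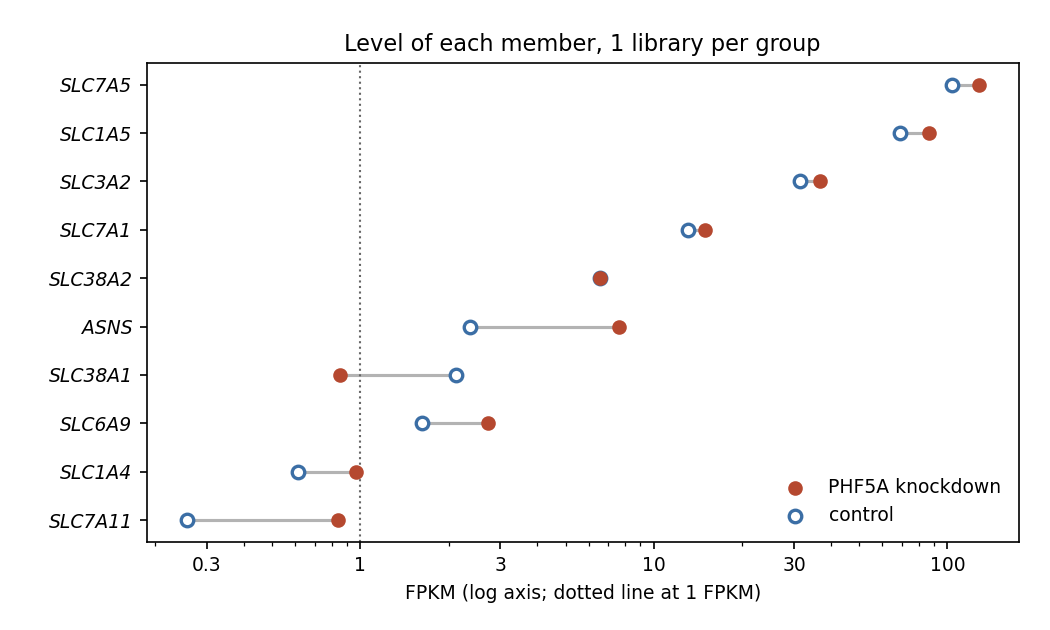
FPKM of the 10 genes on a log axis, with filled points for the PHF5A knockdown library and open points for the control library. SLC7A5, SLC1A5 and SLC3A2 are the highest in both, ASNS moves past SLC38A2, and SLC7A11 and SLC1A4 stay under the dotted line at 1 FPKM.

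The order among the highest genes depended on the gene length used. The length implied by the deposited FPKM was 14.7 kilobases for SLC3A2, which is 6.62 times its longest protein-coding transcript in GENCODE release 29. For ASNS it was 9.71 kilobases, or 4.12 times, and for SLC7A11 1.02 times. Per kilobase of the longest coding transcript, SLC3A2 was the highest of the 10 genes, with 244 CPM per kilobase in the knockdown library and 208 in the control library. SLC1A5 then had 167 in the knockdown and 133 in the control, and SLC7A5 had 146 in the knockdown and 119 in the control. The light chain SLC7A5 was 3.47 times as high as its heavy chain SLC3A2 by FPKM in the knockdown library and 3.30 times in the control library, but 0.6 times in the knockdown and 0.57 times in the control per coding transcript length. The merged exons of all transcripts came to 5178 bases for SLC3A2 and 4745 for SLC7A5. SLC7A5 had 664 CPM and SLC3A2 542 in the knockdown library, and 538 and 463 in the control library. By merged exons SLC7A5 thus stood above SLC3A2 in both libraries, so which chain is higher is not settled. The ratio between libraries of 1 gene is free of the length used, but the 1 FPKM limit and the added 1 are not. ASNS, with its long implied length, had 31.3 CPM per kilobase of coding transcript in the knockdown library and 9.77 in the control library.

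ASNS (ENSG00000070669, chromosome 7, 97852118 to 97872542, minus strand, GRCh38) had 1910 counts in the knockdown library and 611 in the control library. Its CPM ratio was 3.21 (2.92 to 3.52) and its log2 ratio of FPKM + 1 was 1.35, which was above the value of 99.2% of the expressed genes. No table entry overlapped it. Of the 4 entries named as its pseudogenes, ASNSP4 had 1 count in the knockdown library and 0 in the control library, and the other 3 had 0 in both.

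SLC7A11 (ENSG00000151012, chromosome 4, 138164097 to 138242349, minus strand), the cystine carrier, had 214 counts in the knockdown library and 67 in the control library. Its CPM ratio of 3.27 (2.48 to 4.38) was close to that of ASNS, but at 0.838 FPKM in the knockdown and 0.256 in the control it stayed below 1 FPKM and its log2 ratio of FPKM + 1 was only 0.55. The overlapping antisense entry SLC7A11-AS1 had 0 counts in the knockdown library and 4 in the control library. SLC3A2 (ENSG00000168003, chromosome 11, 62856102 to 62888875, plus strand), the shared heavy chain, had 14046 counts in the knockdown library and 12290 in the control library, a CPM ratio of 1.17 (1.14 to 1.20). SLC7A5 (ENSG00000103257, chromosome 16, 87830023 to 87869488, minus strand), the leucine-carrying light chain, had 17200 counts in the knockdown and 14296 in the control, a CPM ratio of 1.23 (1.21 to 1.26). Its copies SLC7A5P1 (87 counts in the knockdown and 133 in the control) and SLC7A5P2 (143 counts in the knockdown and 114 in the control) had far fewer counts, and with both added the ratio was 1.23 (1.20 to 1.26). The FPKM ratio of SLC7A5 to SLC7A11 was 153 in the knockdown library and 406 in the control library.

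SLC7A1 (ENSG00000139514, chromosome 13, 29509410 to 29595688, minus strand), the arginine and lysine carrier, had 3204 counts in the knockdown library and 2875 in the control library, a CPM ratio of 1.14 (1.09 to 1.20). SLC1A5 (ENSG00000105281, chromosome 19, 46774883 to 46788594, minus strand), the exchanger of glutamine and other neutral amino acids, had 12456 counts in the knockdown and 10185 in the control, a CPM ratio of 1.25 (1.22 to 1.29). Its relative SLC1A4 (ENSG00000115902, chromosome 2, 64988477 to 65023865, plus strand), which carries serine and alanine, was far lower in level, with 269 counts in the knockdown and 174 in the control. The CPM ratio of SLC1A4 was 1.59 (1.31 to 1.93). By FPKM SLC1A5 stood 89.2 times as high as SLC1A4 in the knockdown library and 113 times in the control library. The entry CTB-147N14.6, whose span overlaps that of SLC1A5, had 14 counts in the knockdown and 5 in the control.

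The glutamine and alanine carriers SLC38A1 and SLC38A2 lie 88.2 kilobases apart on chromosome 12 and differed from each other in their ratios. SLC38A1 (ENSG00000111371, 46183063 to 46270017, minus strand) had 320 counts in the knockdown library and 818 in the control library, or 2.49-fold lower (2.19 to 2.85) in the knockdown library. Its log2 ratio of FPKM + 1 was -0.75, above that of 12.1% of the expressed genes. SLC38A2 (ENSG00000134294, 46358189 to 46372867, minus strand) had 2379 counts in the knockdown and 2448 in the control, a CPM ratio of 0.996 whose interval of 0.941 to 1.05 holds 1. The FPKM of SLC38A2 was 7.68 times that of SLC38A1 in the knockdown library and 3.09 times in the control library. The overlapping entries RP11-474P2.5 (0 counts in the knockdown and 4 in the control, within SLC38A1) and RP11-474P2.2 (27 counts in the knockdown and 12 in the control, across one end of SLC38A2) were small beside them. The heart muscle transcripts given above were also lower in the knockdown library, and their part in the SLC38A1 value was not tested.

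SLC6A9 (ENSG00000196517, chromosome 1, 43991500 to 44031467, minus strand), the glycine carrier, had 515 counts in the knockdown library and 315 in the control library, a CPM ratio of 1.68 (1.45 to 1.93). Its end overlaps CCDC24, which had 309 counts in the knockdown and 511 in the control and so differed in the other direction. A second overlapping entry, RP5-1198O20.4, had 7 counts in the knockdown and 8 in the control. Without a known strand setting for the counting, reads in the shared part cannot be told apart.

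The log2 ratios moved with the scaling of the libraries. Rescaling FPKM to TPM, which gives both libraries the same sum, moved the median log2 ratio of the expressed genes by -0.32, and it then lay at -0.47. SLC7A5 (-0.12), SLC1A5 (-0.09), SLC3A2 (-0.19), SLC7A1 (-0.21) and SLC38A2 (-0.38) then had log2 ratios below 0, while ASNS (1.04), SLC7A11 (0.45), SLC6A9 (0.23) and SLC1A4 (0.11) stayed above 0. SLC38A1 was at -1.04. With median centring, upper-quartile scaling or totals without the abundant small RNAs, all 9 genes other than SLC38A1 were above 0. Set against the median of the expressed genes under the same scaling, those 9 were above it and SLC38A1 below it under each of the 5 scalings, with ASNS between 1.49 and 1.55 above it.

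**Figure D3:**
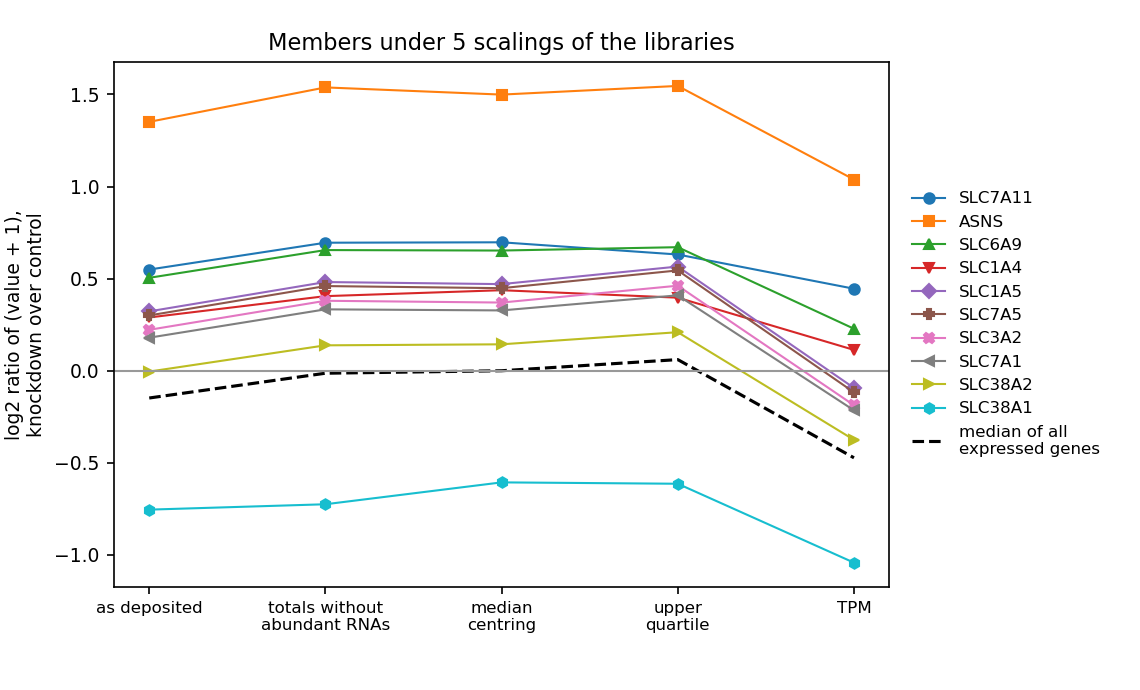
Log2 ratio (knockdown over control, with 1 added to each value) of the 10 genes under 5 scalings, with the dashed line for the median of all expressed genes under each. Under TPM SLC7A5 (-0.12), SLC1A5 (-0.09), SLC3A2 (-0.19) and SLC7A1 (-0.21) drop below 0. SLC38A2 (-0.38) and SLC38A1 (-1.04) drop further below it, and SLC38A1 alone is under the dashed line in each scaling.

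Other amino acid carriers of the cell surface and of vesicles that reached 1 FPKM centred on the median of all expressed genes. Of 43 such genes 13 reached 1 FPKM and 12 had 0 counts in both libraries. Of the 13, 0 were past 2-fold higher and 1 past 2-fold lower, and their median log2 ratio was -0.15, as was that of all expressed genes. The summed FPKM of all 43 was 59.1 in the knockdown library and 71.9 in the control library, while that of the 9 carriers followed here was 278 in the knockdown and 228 in the control. Most of the sum of the 9 was SLC7A5, SLC1A5 and SLC3A2, which were lower in the knockdown library after the TPM rescaling. Among the 13 others that reached 1 FPKM, SLC43A2 (LAT4), a leucine and phenylalanine carrier, was the 1 gene past 2-fold lower. It had 239 counts in the knockdown and 1195 in the control and a log2 ratio of -1.34. SLC6A17, a vesicle carrier of neutral amino acids in neurons, had 6.61 FPKM in the knockdown and 11.9 in the control (-0.76), and SLC38A3 (SNAT3) had 0.954 FPKM in the knockdown and 1.76 in the control (-0.50). SLC7A8 (LAT2), another light chain of SLC3A2, had 557 counts in the knockdown and 278 in the control, a CPM ratio of 2.05 (1.78 to 2.38) and a log2 ratio of FPKM + 1 of 0.49. The light chain SLC7A6 had 821 counts in the knockdown and 1390 in the control, a CPM ratio of 0.606 (0.555 to 0.661), so the partners of SLC3A2 were not all higher. By CPM ratio 1 of the 20 genes of at least 50 counts was past 2-fold higher (SLC7A8). Another 4 were past 2-fold lower (SLC43A2, SLC1A3, SLC7A2 and SLC36A4). The counting interval of the ratio lay below 1 for 14 of the 20, against 48.1% of entries with at least 50 counts. It lay above 1 for 3 of the 20, against 23.8%. Over all 13452 entries with at least 50 counts, 5.32% were past 2-fold higher by CPM ratio and 16.4% past 2-fold lower. On the log2 ratio of FPKM + 1, 2.53% and 6.2% of the 8957 expressed genes were. Counts in the lists below stand against the same shares.

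Of 12 mitochondrial amino acid carriers 10 reached 1 FPKM, with a median log2 ratio of -0.30, 0 past 2-fold higher and 1 past 2-fold lower. That gene was SFXN3, a sideroflexin, with 1195 counts in the knockdown library and 3713 in the control library (log2 ratio -1.42). The glutamate carrier SLC25A22 had 1811 counts in the knockdown and 3451 in the control (-0.80), and the aspartate and glutamate carriers SLC25A13 (-0.49) and SLC25A12 (-0.37) were also under the median of the expressed genes. By CPM ratio 0 of the 10 with at least 50 counts were past 2-fold higher and 2 past 2-fold lower (SFXN3 and SLC25A13). The shares over all entries with at least 50 counts were 5.32% and 16.4%.

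The enzymes around asparagine synthetase stayed within 2-fold. Of 17 genes of asparagine, aspartate and glutamine metabolism 14 reached 1 FPKM, their median log2 ratio was -0.10, and 0 were at least 2-fold higher or lower, also by CPM ratio among the 15 with at least 50 counts. GMPS, which like ASNS takes its nitrogen from glutamine, had 2.98 FPKM in the knockdown library and 1.80 in the control library (0.51). CTPS1 (-0.34) and GOT2 (-0.25), the mitochondrial aspartate aminotransferase, were the members of the list farthest below 0.

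Downstream of cystine, 5 of 9 genes of cysteine and glutathione metabolism reached 1 FPKM, with 1 past 2-fold higher and 0 past 2-fold lower, and a median log2 ratio of -0.01. CHAC1, which breaks down glutathione and is a known ATF4 target, was the higher one, with 1008 counts in the knockdown library and 304 in the control library, and by CPM ratio it was the 1 gene past 2-fold of the 7 with at least 50 counts. The glutathione reductase gene GSR had 10.3 FPKM in the knockdown and 14.6 in the control (-0.46), CTH, which makes cysteine from cystathionine, had 0.932 FPKM in the knockdown and 1.43 in the control (-0.33), and GPX4, the lipid peroxide reductase, had 203 FPKM in the knockdown and 187 in the control (0.12). The subunits of glutamate-cysteine ligase, which makes the first step of glutathione synthesis, were below 1 FPKM, and their CPM ratios were 0.829 (GCLC, 207 counts in the knockdown and 256 in the control) and 1.24 (GCLM, 182 counts in the knockdown and 150 in the control).

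Of 34 genes that sense amino acids and signal to mTORC1 or GCN2, 24 reached 1 FPKM. Their median log2 ratio was -0.23, with 2 past 2-fold higher and 0 past 2-fold lower. By CPM ratio, with all 34 at 50 counts or more, 2 were past 2-fold higher (LAMTOR1 and SESN2). Another 7 were past 2-fold lower (C7orf60, SESN1, FNIP2, RRAGD, SESN3, MIOS and MLST8). Of all 13452 entries with at least 50 counts, 5.32% were past 2-fold higher and 16.4% past 2-fold lower by this ratio. LAMTOR1, the anchor of the Ragulator complex on lysosomes, had 4484 counts in the knockdown library and 1621 in the control library (log2 ratio 1.43), while LRTOMT, which overlaps it, had 83 in the knockdown and 92 in the control. SESN2, a leucine sensor, had 2456 counts in the knockdown and 1143 in the control (1.08). C7orf60, the symbol in the table for the S-adenosylmethionine sensor SAMTOR, had 18 counts in the knockdown and 147 in the control (-0.90), and the mTOR partner MLST8 had 1.68 FPKM in the knockdown and 3.77 in the control (-0.83), with the overlapping BRICD5 at 13 counts in the knockdown and 91 in the control. MTOR itself had 5.78 FPKM in the knockdown and 8.08 in the control.

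**Figure D4:**
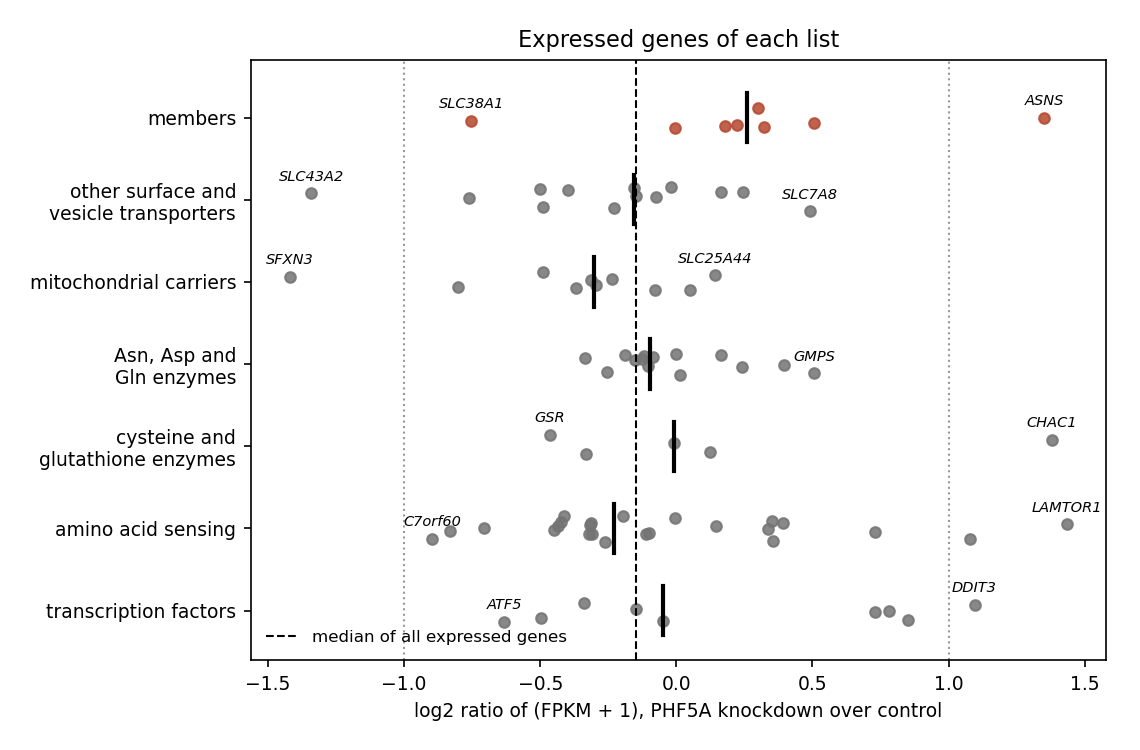
Log2 ratio of FPKM + 1 (knockdown over control) for genes of at least 1 FPKM in 7 lists, with 1 point per gene, a black bar for the list median, a dashed line for the median of the 8957 expressed genes and dotted lines at 2-fold. The 8 expressed members have a median of 0.26 with ASNS at 1.35, and the other surface and vesicle carriers centre on -0.15.

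Transcription factors known to act on these genes went in both directions, and all 9 of the list reached 1 FPKM, with a median log2 ratio of -0.05. By CPM ratio 2 of the 9 were past 2-fold higher (DDIT3 and ATF3) and 0 past 2-fold lower, against 5.32% and 16.4% of all 13452 entries. ATF4 had 64.4 FPKM in the knockdown library and 38.5 in the control library, a CPM ratio of 1.68 (1.61 to 1.74), and ATF3 had 419 counts in the knockdown and 123 in the control, a ratio of 3.49 (2.85 to 4.31). DDIT3 (CHOP), the 1 factor at least 2-fold higher on the log2 scale (1.10), had 281 counts in the knockdown and 50 in the control, and it overlaps MARS with 5249 counts in the knockdown and 7765 in the control. MYC, known to raise SLC7A5 and SLC1A5, had 6957 counts in the knockdown and 4053 in the control, a CPM ratio of 1.76 (1.69 to 1.83). Among C/EBP partners of ATF4, CEBPB and CEBPG were not higher. CEBPB had 26.6 FPKM in the knockdown and 34.0 in the control. CEBPG had 169 counts in the knockdown and 205 in the control, with a CPM ratio interval of 0.685 to 1.04. ATF5 had 7.23 FPKM in the knockdown and 11.8 in the control, and NFE2L2 (NRF2), known to raise SLC7A11, had 1.81 FPKM in the knockdown and 1.91 in the control.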

How the data were processed

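Total RNA was extracted with Trizol and made into TruSeq Stranded Total RNA libraries, per the labels' protocols. HISAT2 2.0.4 and Cuffdiff were used with hg38 (GRCh38), as the submitters' processing notes list. Not given in the sources used here were the annotation release, the strand setting and how reads matching several places were counted. The authors deposited a raw count and an FPKM value per gene and library, per the file headers. The values show that FPKM is the count divided by the library total and by 1 fixed length per gene, with implied lengths that differ by at most 0.0241% between libraries. A gene whose row was split into 2 lines was left out. Gene lengths, strands and spans were set beside GENCODE release 29, where all 10 spans were equal to those of the table.

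The log2 ratio of knockdown to control used a pseudocount of 1 FPKM, for genes that reached 1 FPKM in either library, with calls at 2-fold by size. CPM ratios have 95% Clopper-Pearson intervals, from the binomial split of the 2 counts, and FPKM levels an exact Poisson one. Both cover counting error only, since reads are not independent molecules. With 1 library per group no test was made. The members and lists were chosen with earlier results of these data known. Genes named from a list are those past 2-fold and at least the 4 with the largest absolute log2 ratio among its expressed genes. SLC7A6, MTOR, GCLC, GCLM and the further transcription factors were added after their values were seen, as were genes past 2-fold by CPM. The markers KRT19, VIL1 and CDH17 were also named outside this rule. Marker lists of other cell types are given as sums, with TNNI3 and TTN named after their values were seen. Some genes of the lists and some overlapping entries are not reported here by name. The procedure was tested on simulated data. Calculations used matplotlib 3.10.9, scipy 1.17.1, pandas 2.3.3 and numpy 2.4.6 under Python 3.11.15.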

Additional observations from a re-analysis of the deposited data

How the results depend on the processing

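No paired analysis was possible because each group had 1 library. ASNS was at least 2-fold higher under each alternative run, and with unshrunk CPM ratios, an alternative chosen after seeing the data, SLC7A11 joined it (2 higher). As reported, 0 members were at least 2-fold lower. The count was 1, SLC38A1, with a pseudocount of 0.1, TPM rescaling, a CPM prior of 0.5, a 1.5-fold threshold and CPM ratios. The members' median log2 ratio of 0.26 was 0.41 with median centring, 0.46 with upper-quartile scaling, 0.43 with totals without the abundant RNAs and -0.15 with TPM rescaling. Among the other carriers 0 were lower with a minimum of 5 FPKM, 2 with TPM rescaling or a 1.5-fold threshold and 4 by CPM ratio, where 1 was higher, as 1 was with the CPM prior. Over all expressed genes, 227 higher and 555 lower became 469 and 1129 with a pseudocount of 0.1, 131 and 309 with a minimum of 5 FPKM, and 345 and 358 with median centring. They became 388 and 349 with upper-quartile scaling, 107 and 1405 with TPM rescaling, and 389 and 498 with totals without the abundant RNAs. A CPM prior gave 379 and 1063, a 1.5-fold threshold 757 and 1631, and CPM ratios 715 and 2211. These counts are out of differing numbers of genes, so they are not directly comparable. The number was 4043 with a minimum of 5 FPKM, 8928 with upper-quartile scaling, 9664 with TPM rescaling and 9848 without the abundant RNAs. CPM ratios covered 13452 entries with at least 50 counts, and the other settings 8957 genes. The causes were not tested. Counting error limits SLC7A11 and SLC1A4 most, with 67 and 174 control counts.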
